A study of Mus musculus with 4 samples.

Results

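The genes described here encode 9 secreted proteins of the matricellular type and of the matrix around them: osteopontin (Spp1), periostin (Postn), tenascin C (Tnc), thrombospondins 1 and 2 (Thbs1, Thbs2), Sparc, Cthrc1, Tgfbi and Cilp. They were taken by symbol, 9 of the 31053 genes listed in each of the 4 matrices, and they were chosen by earlier results on these same libraries, among them that the level of Spp1 differed between the 2 deligated libraries. Cells were dissociated from the mouse submandibular salivary gland, and the harvest protocol names the sublingual gland beside it. Epithelial and red blood cells were depleted with beads against EpCAM and Ter119, dead cells were removed, and the remaining, stroma-enriched cells were sequenced on the 10x Genomics droplet platform. All mice were female C57BL6/J with no transgene or deletion named. In the deligated group (2 libraries, animals 14 weeks old) a metal clip closed the main ducts for 14 days and the gland was harvested 5 days after the clip was taken off. In the homeostatic group (2 libraries, animals 12 weeks old) there was no surgery. No ligated-only or sham-operated group was analysed here, so surgery, duct closure, release and the age difference are carried together by the deligated group. Each preparation is described as 2 glands, without the number of animals, so the spread between the 2 libraries of a group may be partly technical and each p-value measures that spread alone.

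Matricellular proteins are secreted into the matrix and act mostly as signals to cells through integrins and other surface receptors, rather than as structural fibres. They are low in most resting adult tissues and are known to be made during development, wound repair and fibrosis, often by activated fibroblasts. Osteopontin is also a known product of macrophages and of some lymphocytes, periostin of periosteum and of nerve-associated glia, and tenascin C of myoepithelium and repairing stroma.

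The promoters of Spp1, Cilp and Postn are shown. Among the members tested in fibroblast-like cells, Spp1 and Cilp had the largest log2 fold changes between the groups. They were also found together in the same cells. Postn was chosen because it was high in other cell classes than either. Each window runs from 250 bases before to 50 bases after the RefSeq start in GRCm38.p6. Capitals mark matches, on either strand, to TATAAA (the TATA box), TGANTCA (AP-1), TGTGGT (RUNX) and CCAAT (the CCAAT box). All 3 genes lie on the plus strand, at chr5:104434861-104435160 for Spp1, chr9:65264930-65265229 for Cilp and chr3:54360857-54361156 for Postn.
Spp1: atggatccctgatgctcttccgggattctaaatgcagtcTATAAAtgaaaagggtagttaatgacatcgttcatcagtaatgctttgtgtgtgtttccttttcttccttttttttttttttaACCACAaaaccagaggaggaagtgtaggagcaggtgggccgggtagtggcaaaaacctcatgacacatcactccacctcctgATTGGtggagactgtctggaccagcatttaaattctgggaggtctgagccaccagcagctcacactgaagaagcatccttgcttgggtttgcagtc
Cilp: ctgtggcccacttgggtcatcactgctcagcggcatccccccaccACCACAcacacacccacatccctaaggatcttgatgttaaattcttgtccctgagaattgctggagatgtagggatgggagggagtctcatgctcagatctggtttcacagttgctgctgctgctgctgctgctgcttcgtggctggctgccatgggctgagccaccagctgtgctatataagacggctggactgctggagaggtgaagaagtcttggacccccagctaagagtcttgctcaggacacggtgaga
Postn: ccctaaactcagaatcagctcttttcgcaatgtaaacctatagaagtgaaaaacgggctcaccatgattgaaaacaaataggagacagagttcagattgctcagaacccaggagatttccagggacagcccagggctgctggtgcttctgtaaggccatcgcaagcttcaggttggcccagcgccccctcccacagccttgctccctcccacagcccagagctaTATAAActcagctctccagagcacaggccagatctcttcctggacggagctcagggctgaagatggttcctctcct
In the Spp1 window TATAAA began at position -211, the reverse complement of TGTGGT at -128 and the reverse complement of CCAAT at -46, counted from the start. The Cilp window held only the reverse complement of TGTGGT, at -205. The Postn window held only TATAAA, at -26. TGANTCA was found in none of the 7 member promoters in the RefSeq promoter set used here (Thbs1 and Cthrc1 were not in that set). Of all 32851 promoters of this length, 13.6% held TATAAA, 7.81% TGANTCA, 16.8% TGTGGT and 37.4% CCAAT, so single matches of the shorter strings are common. A match is a description of the letters only.

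The 4 libraries held 4725, 8713, 12854 and 13266 barcodes (deligated 1, deligated 2, homeostatic 1, homeostatic 2), with between 35662241 and 53898793 UMIs in each, and the median was 5278 to 6075 UMIs per cell in the deligated libraries and 2766 to 2912 in the homeostatic ones. After filtering, 33695 cells in 33 clusters remained. Members were kept out of the genes used for clustering. Of the clusters, 28 fell into 10 classes named by marker genes and 5 stayed unnamed, and those held 1.59% of deligated and 24.4% of homeostatic cells. Between 14 and 54 barcodes were shared by any 2 libraries, at most 0.482% of either. Doublets were called and removed, 164 to 1165 per library. The matrices of the deligated libraries carry the Cell Ranger version 6.0.1 in their headers and those of the homeostatic libraries 7.0.0, so version and group cannot be told apart. Fold changes between groups ran with intron length (Spearman rho = -0.54 across 11551 genes in fibroblast-like cells, genes not being independent replicates), and for this reason calls and counts below are also given after that trend was removed where they changed.

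Fibroblast-like cells numbered 360 and 742 in the deligated and 306 and 285 in the homeostatic libraries. Their defining markers were present in every library, with Col1a1 at 5299, 3838, 1574 and 1613 CPM and Dcn at 14750, 18200, 16260 and 16300 CPM in the order of libraries given above, which is kept throughout. CPM are counts scaled to a common total, here the UMIs of a gene over all UMIs of the summed cells of a class in a library, and they are not compared between genes. Nearly all deligated fibroblast-like cells (1096) fell in 1 cluster led by Cilp, Mfap4, Spp1 and Col1a1, and most homeostatic ones (519) in another led by Lsamp, Astn2 and Eda. The 2 groups therefore hold most of this class in different clusters. Macrophage markers summed to 29.3 and 37.0 CPM in the deligated and 47.3 and 34.6 CPM in the homeostatic fibroblast-like sums, with none of the 5 tested genes of the list called. Epithelial markers summed to 19.6 and 46.0 against 650 and 435 CPM, with 6 of 6 tested genes lower in the deligated libraries, and erythroid markers to 56.2, 1692, 386 and 63.3 CPM. The part of these other cells' RNA in the members' differences was not tested.

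Of the 9 genes, 6 were higher in both deligated than in both homeostatic fibroblast-like sums, 2 were lower in both (Thbs1 and Tgfbi) and 1 overlapped (Cthrc1). Among all 11556 genes tested in this class, 26.2% were higher and 37.4% lower without overlap. The edgeR test could be run on 7 of the 9, since Tnc and Cthrc1 had too few UMIs, and after Benjamini-Hochberg adjustment over all tested genes 5 were higher and 1 was lower. Over all genes 26.3% were called, 8.36% higher and 17.9% lower. With the intron-length trend removed the calls over all genes turned to 1426 higher and 846 lower, from 966 and 2071, and the median over all genes moved from 0.01 to 0.11 on the log2 scale. The members were chosen with this contrast known, so nothing is read from the count itself.

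**Figure D1:**
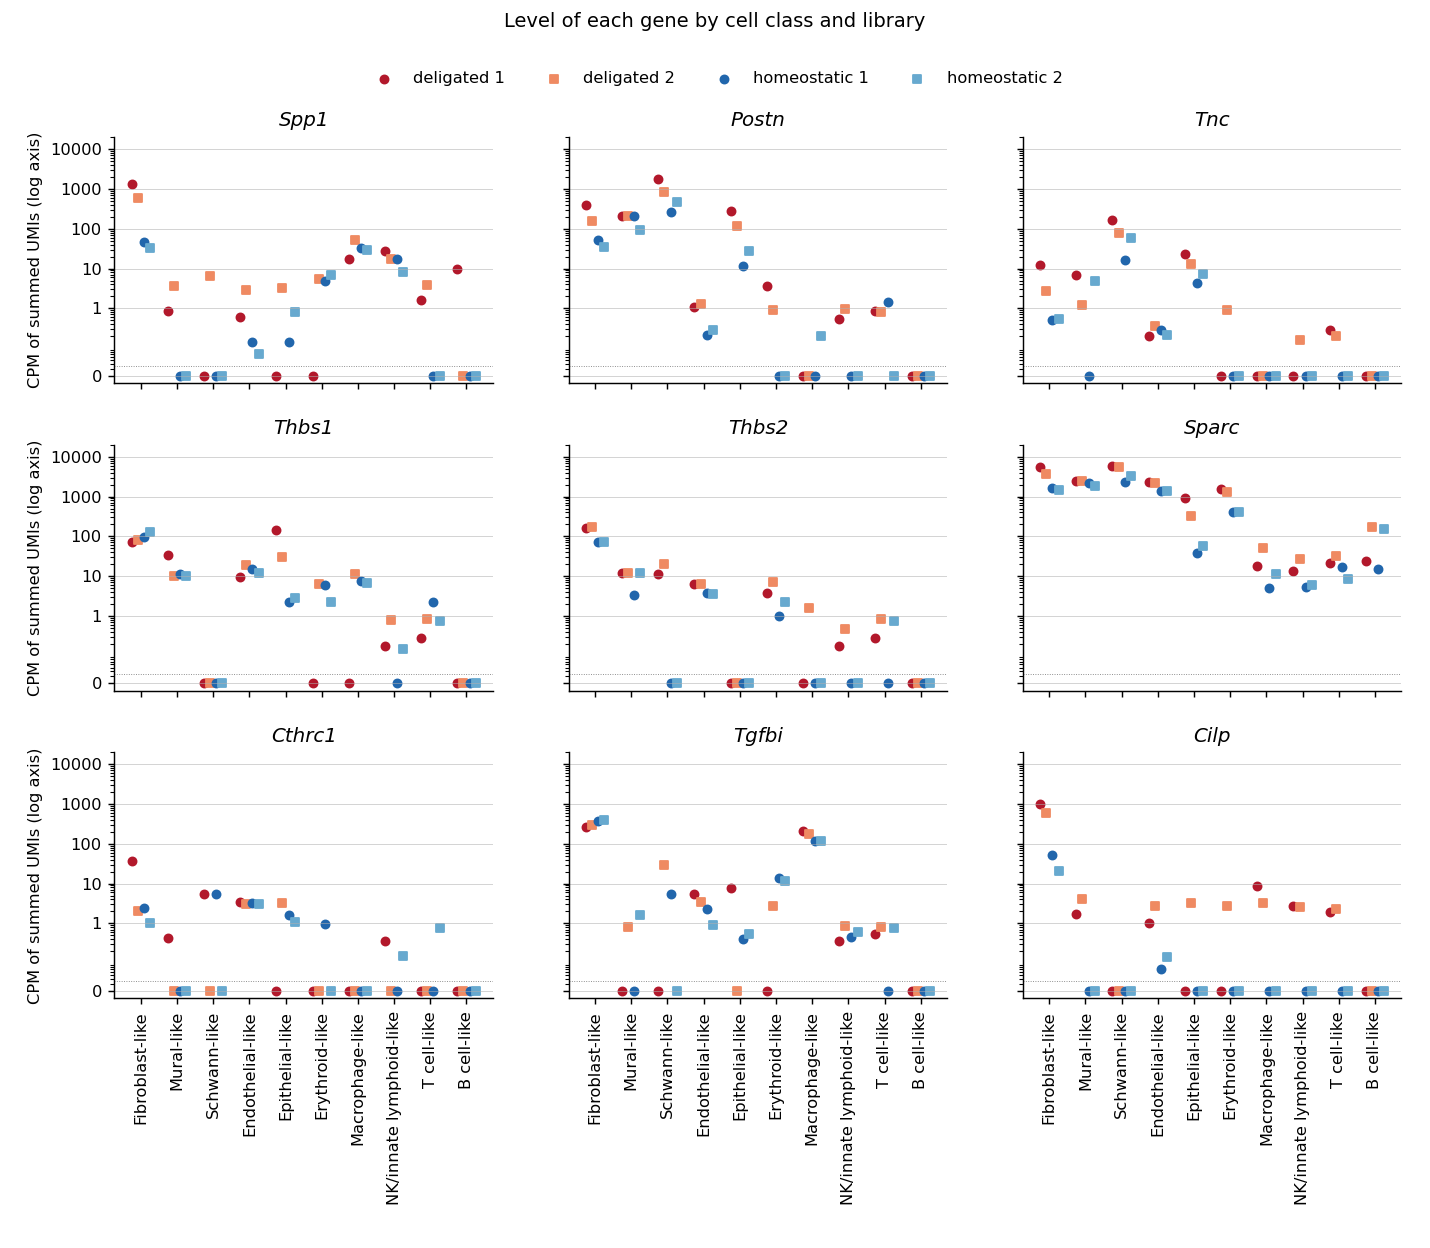
CPM of summed UMIs of each gene (log axis; a value of 0 is drawn below the dotted line) in 10 cell classes, 1 point per library, circles for replicate 1 and squares for replicate 2 of each group. Spp1 and Cilp stand highest in the deligated fibroblast-like sums (589 to 1325 and 605 to 1027 CPM), Postn and Tnc in Schwann-like cells, and Sparc is above 1300 CPM in fibroblast-, mural-, Schwann- and endothelial-like cells of every library.

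Spp1 (ENSMUSG00000029304, chr5:104435118-104441050, plus strand) encodes osteopontin, an acidic phosphoprotein that binds integrins and Cd44. In fibroblast-like cells its level was 1325, 589, 46.3 and 32.5 CPM, from 6293, 3802, 93 and 62 UMIs. Both deligated libraries were above both homeostatic ones, and deligated 1 was the highest. The group means were 957 ± 521 and 39.4 ± 9.78 CPM (SD, n = 2 libraries each), a ratio of 24.3. The log2 fold change was 4.67 ± 0.40 (SE), with an adjusted p of 5.012e-05 by edgeR's quasi-likelihood test with Benjamini-Hochberg adjustment. Under edgeR's robust prior, chosen after seeing the data, the same fold change had an SE of 0.74 and an adjusted p of 0.05455, so the call was lost there. It was 3.93 without deligated 1 and 5.19 without deligated 2.

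The share of fibroblast-like cells with a Spp1 UMI separated the groups as the level did, and was close between the 2 deligated libraries. It was 52.2% (188 of 360 cells, exact 95% interval 46.9 to 57.5) in deligated 1 and 53.4% (396 of 742, 49.7 to 57.0) in deligated 2. It was 5.88% (18 of 306, 3.52 to 9.14) and 2.81% (8 of 285, 1.22 to 5.46) in the homeostatic libraries. Cells were also thinned to 1000 UMIs each, because fibroblast-like cells were deeper in deligated 1 (median 13064.5 UMIs) than in deligated 2 (9049) and the homeostatic libraries (6672.5 and 6588). The thinned shares were 30.6% (25.8 to 35.6), 25.8% (22.7 to 29.2), 3.36% and 1.06%, with 0, 22, 8 and 1 shallower cells left out. The intervals cover counting error only. Both deligated shares were above both homeostatic ones, and the intervals of the 2 deligated shares overlapped.

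The 2 deligated libraries differed in how much Spp1 a positive cell held. The ratio of their levels was 2.25 (2.16 to 2.34, counting error only), and 1.87 (1.63 to 2.14) after thinning. This is a description, since the difference was part of the reason for choosing the gene. Among 3360 genes with a mean of at least 50 CPM in these 2 sums the median log2 ratio was -0.07, the 5th and 95th percentiles were -0.51 and 0.39, and 11 genes exceeded the log2 ratio of 1.17 of Spp1. Postn (1.32) was among these, and Cilp (0.77) and Sparc (0.54) also lay above the 95th percentile. Thbs1 (-0.14), Thbs2 (-0.05) and Tgfbi (-0.17) lay between the 2 percentiles. A positive cell held a median of 12 Spp1 UMIs in deligated 1 and 5 in deligated 2, or 9.33 and 5.05 per 10000 UMIs of the cell. At least 10 Spp1 UMIs were found in 28.3% of fibroblast-like cells of deligated 1 (102 cells), 15.6% of deligated 2 (116 cells) and 3 cells of each homeostatic library.

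Spp1 was concentrated in few cells. The top 5% of fibroblast-like cells held 56.5% of the Spp1 UMIs in deligated 1 (18 cells) and 47.6% in deligated 2 (38 cells). The highest cell held 551 and 271 UMIs, against 19 and 25 in the homeostatic libraries. Above 50 per 10000 UMIs stood 16 cells in each deligated library and none in either homeostatic library. Of the 155 Spp1 UMIs in homeostatic fibroblast-like cells, 47 lay in 3 of the 39 homeostatic cells that fell in the cluster holding the deligated cells.

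**Figure D2:**
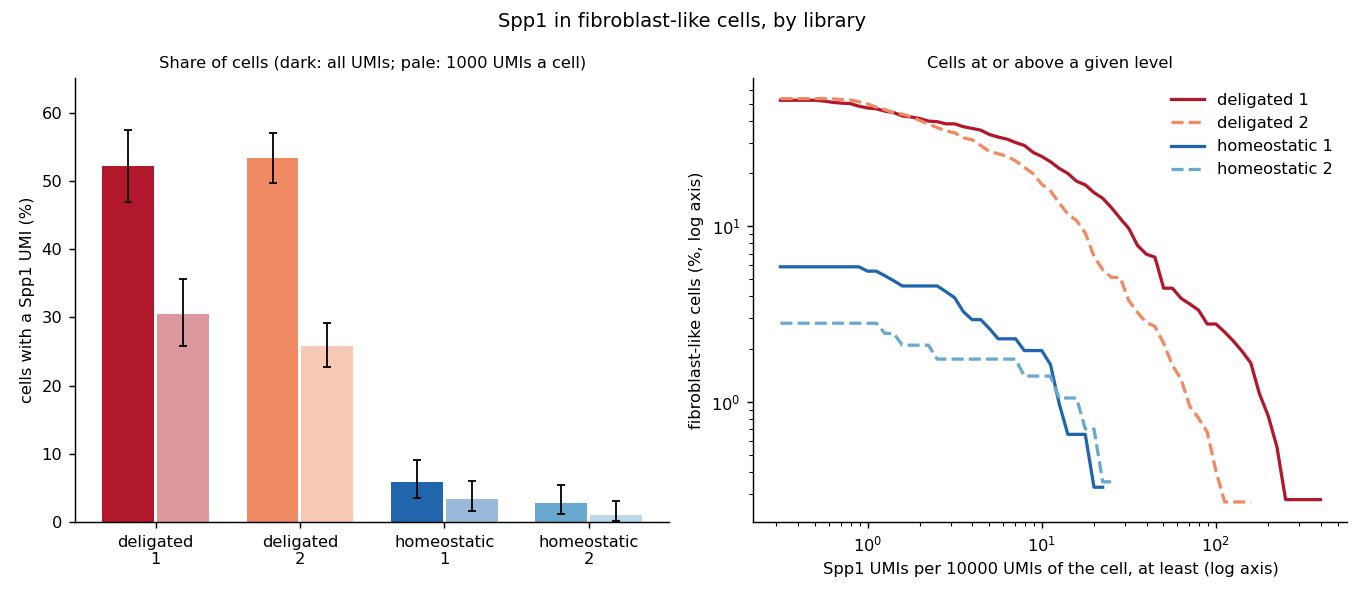
Left, share of fibroblast-like cells with a Spp1 UMI (%) in each library, dark bars for all UMIs and pale bars for cells thinned to 1000 UMIs, with exact 95% intervals. Right, share of cells (log axis) at or above a given number of Spp1 UMIs per 10000 UMIs of the cell (log axis). The dark bars of the deligated libraries reach 52.2% and 53.4%, while the curve of deligated 1 runs above that of deligated 2 at high levels.

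The order of the deligated libraries was not the same in every class. Spp1 in NK/innate lymphoid-like cells was 28.3, 17.3, 17.8 and 8.21 CPM, and deligated 1 to deligated 2 was 1.64 (1.33 to 2.02), the same order as in fibroblast-like cells. In the unnamed clusters it was 2.51 (0.933 to 7.83, 16 and 6 UMIs). In endothelial-like cells that ratio was 0.213 (9 and 49 UMIs), in mural-like cells 0.240 (2 and 9 UMIs) and in macrophage-like cells 0.343 (4 and 32 UMIs). In T cell-like cells it was 0.430 (6 and 19 UMIs). Deligated 2 was the higher library in these 4 classes, though the intervals of the mural-like (0.0252 to 1.16) and T cell-like ratios (0.141 to 1.12) include 1. Spp1 UMIs in endothelial- and T cell-like cells came with Cilp, at 0.6 and 1.09 Spp1 UMIs per Cilp UMI in endothelial-like cells (deligated 1 and 2) and 1.73 in T cell-like cells of deligated 2, beside 1.29 and 0.974 in fibroblast-like cells of the same libraries. In NK/innate lymphoid-like cells the ratio was 10.6 and 6.64, and the homeostatic libraries had 114 and 55 Spp1 UMIs there and no Cilp UMI. Free RNA was not measured apart from these counts.

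Macrophage-like cells held 17.7, 51.5, 33.0 and 28.8 CPM of Spp1, with 7.69% (3 of 39), 15.6%, 8.83% and 8.30% of cells positive. The groups overlapped. The class had too few deligated cells (39 and 109) for the test. Most of the positive cells lay in the cluster with Cx3cr1 among its leading genes, where 15.8%, 21.5%, 15.9% and 14.0% of cells held Spp1, against 0%, 6.82%, 1.91% and 2.64% in the cluster with C1qa and C1qb among its leading genes. These shares come with a difference in depth, since the median cell held 5978 to 9002 UMIs in the former cluster and 1128 to 1268.5 in the latter. The levels were 21.3, 50.3, 34.6 and 28.2 CPM in the former and 0, 61.5, 24.4 and 32.6 CPM in the latter, with no common order over the libraries. Macrophage-like cells held 39.5% and 48.3% of all Spp1 UMIs of the homeostatic libraries (161 and 142 UMIs) and 0.0616% and 0.772% of those of the deligated ones. Fibroblast-like cells held 96.9% and 91.7% of those of the deligated libraries, and 22.8% and 21.1% in the homeostatic ones.

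The NK/innate lymphoid-like share with a Spp1 UMI was 7.14%, 5.27%, 4.35% and 3.24%, at median depths of 5944, 5496, 6216 and 6117 UMIs. In T cell-like cells, taken as the background, it was 0.932%, 1.84%, 0% and 0%, at 5171, 5023.5, 5187 and 5020 UMIs. The 2 zeros come from 241 and 233 cells and allow shares of up to 1.245% and 1.288% (taking 3 counts as the limit that a count of 0 allows; the upper bounds of the exact intervals are 1.52% and 1.57%). In both groups the NK/innate lymphoid-like shares were above those of T cell-like cells. The plan had named NK/innate lymphoid-like and B cell-like cells as background too. B cell-like cells held 2, 0, 0 and 0 Spp1 UMIs in 58, 19, 16 and 19 cells. Erythroid-like cells held 0, 6, 5 and 6 Spp1 UMIs in 24, 118, 160 and 163 cells. The log2 fold change of Spp1 in NK/innate lymphoid-like cells was 0.84 ± 0.34 (SE, adjusted p = 0.06827 by edgeR with Benjamini-Hochberg adjustment). It was called without deligated 2 (1.25) and without homeostatic 1 (1.49), and with the replicate block (0.93). It was smaller without deligated 1 (0.47), without homeostatic 2 (0.42) and after thinning (0.40, adjusted p = 0.4152). Deligated and homeostatic cells of this class fell mostly in different clusters, led by Cd7 and Klrb1c and by Dscam and Dok6.

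Cilp (ENSMUSG00000042254, chr9:65265180-65280605, plus strand), the cartilage intermediate layer protein, was close to restricted to fibroblast-like cells in these libraries. They held 99.1%, 97.3%, 99.1% and 95.1% of all Cilp UMIs. The level was 1027, 605, 52.3 and 20.4 CPM. Both deligated libraries were above both homeostatic ones, with deligated 1 the highest, and the deligated libraries stood at a ratio of 1.70 (1.63 to 1.77). The means were 816 ± 299 and 36.3 ± 22.5 CPM (SD, n = 2), a ratio of 22.4. Cilp rose by a log2 fold change of 4.55 ± 0.40 (SE, adjusted p = 5.364e-05, edgeR with Benjamini-Hochberg adjustment). It was 4.03 without homeostatic 2 and 5.38 without homeostatic 1, and the adjusted p was 0.05475 under the robust prior. A Cilp UMI was found in 69.4%, 59.0%, 9.80% and 7.02% of cells, and in 36.7%, 29.6%, 5.03% and 2.46% after thinning.

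Cilp was found more often in Spp1-positive than in Spp1-negative fibroblast-like cells of both deligated libraries. After thinning, 63.6% of Spp1-positive cells of deligated 1 also held Cilp (70 of 110, exact 95% interval 53.9 to 72.6), against 24.8% of Spp1-negative cells (62 of 250, 19.6 to 30.6). In deligated 2 the shares were 44.1% (82 of 186, 36.8 to 51.5) and 24.5% (131 of 534, 20.9 to 28.4). The intervals do not overlap in either library. Cells of 1 library are not replicates, so this is a description of 2 libraries. Postn was found with Spp1 in 30.9% against 15.2% of cells in deligated 1 and in 11.8% against 10.7% in deligated 2. Only deligated 1 showed separate intervals for Postn (22.5 to 40.4 and 10.99 to 20.3). Tgfbi was found in 29.1% against 25.2% of cells in deligated 1 and in 32.8% (26.1 to 40.05) against 20.97% (17.6 to 24.7) in deligated 2, where its intervals are separate. A difference between the 2 libraries in these pairs was not tested.

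Postn (ENSMUSG00000027750, chr3:54361109-54391037, plus strand) encodes periostin, a fasciclin-domain protein that binds integrins and collagen. In fibroblast-like cells it was 386, 154, 53.3 and 34.6 CPM. Both deligated libraries were above both homeostatic ones, and deligated 1 was 2.50 times deligated 2 (2.31 to 2.70). The means were 270 ± 164 and 43.9 ± 13.2 CPM (SD, n = 2). Postn rose by 2.69 ± 0.42 (log2, SE, adjusted p = 0.001485, edgeR with Benjamini-Hochberg adjustment). The value was 1.84 without deligated 1 and 3.25 without deligated 2, and under the robust prior the adjusted p was 0.1522 and the call was lost. Leaving out the small cluster led by Pi16, an alternative added after seeing the data, gave 3.40.

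Schwann-like cells had the highest Postn level of any class, 1792, 846, 266 and 459 CPM from 320, 258, 48 and 72 UMIs in 30, 64, 51 and 44 cells. Both deligated libraries were above both homeostatic ones, with deligated 1 again the higher (2.12 times deligated 2). The class was too small for the test. Tnc followed the same order of groups in this class, at 162, 78.7, 16.6 and 57.4 CPM (29, 24, 3 and 9 UMIs).

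In mural-like cells, the pericytes and smooth muscle cells of vessel walls, Postn was 209, 213, 206 and 94.8 CPM. Homeostatic 2 was low and the other 3 libraries lay between 206 and 213 CPM. The log2 fold change was 0.48 ± 0.25 (SE, adjusted p = 0.3174, edgeR with Benjamini-Hochberg adjustment) and the gene was called without deligated 2 (0.53) or without homeostatic 1 (1.104). It was 0.06 without homeostatic 2 (adjusted p = 0.9366) and 0.15 after thinning. Of 4 members tested in this class none was called, against 7.6% of all genes. At an unadjusted p of edgeR none of the 4 reached 0.05 (Sparc 0.0557, Postn 0.0847), against 2027 of 9715 genes. DESeq2 called none of the members, against 4.77% of all genes. Fibroblast markers summed to 1081, 979, 495 and 562 CPM in the mural-like sums, with 3 of 6 tested genes of the list higher in the deligated libraries, and their part was not tested. Postn lay mostly in 1 of the 2 mural clusters. In the cluster led by Abcc9 and Kcnj8, markers of pericytes, Postn was 501, 512, 517 and 339 CPM. This cluster held 159 of 322, 221 of 452, 68 of 130 and 40 of 111 mural-like cells, its smallest share being in homeostatic 2, where Postn was also lower within it. In the cluster led by Pln and Tagln, markers of smooth muscle, it was 33.1, 37.5, 42.4 and 17.5 CPM.

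The difference of Postn between groups was larger in fibroblast-like than in mural-like cells. The difference of the log2 fold changes was 2.17 ± 0.41 (SE, adjusted p = 0.03665, edgeR interaction term with library as a block). It lost the threshold without deligated 1 (1.496), homeostatic 1 (1.87) or homeostatic 2 (2.28). Postn and Sparc were the 2 of 8 members called in this comparison, against 0.966% of 11805 genes.

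Postn in epithelial-like cells was 277, 116, 11.4 and 27.0 CPM, without overlap between groups. Nearly all of it lay in 1 cluster with Krt14, Cnn1 and Trp63 among its leading genes, which are known from basal and myoepithelial cells. That cluster held 19 of 30, 9 of 83, 30 of 1686 and 30 of 1731 epithelial-like cells. Within it Postn was 317, 424, 285 and 505 CPM and the groups overlapped. The difference of the class sums thus came with a different share of this cluster. Tnc in the same cluster was 26.0, 48.4, 109 and 132 CPM, from 6, 4, 31 and 53 UMIs, with both deligated libraries lower. Bead depletion acts on epithelial cells, so these shares do not measure the gland.

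**Figure D3:**
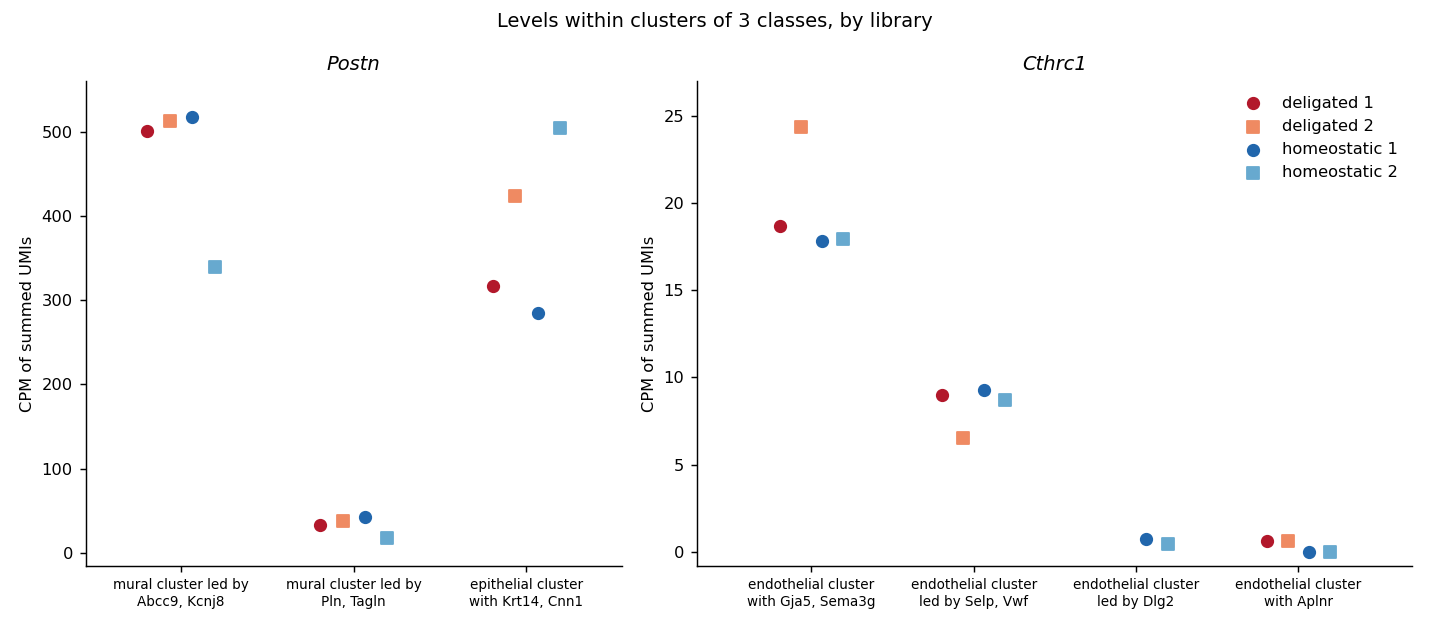
CPM of summed UMIs of Postn in 2 mural-like clusters and 1 epithelial-like cluster (left) and of Cthrc1 in 4 endothelial-like clusters (right), 1 point per library, clusters named by leading genes. Postn is 339 to 517 CPM in the mural cluster led by Abcc9 and Kcnj8 and 17.5 to 42.4 CPM in the other, and Cthrc1 is highest, 17.8 to 24.4 CPM, in the endothelial cluster with Gja5 and Sema3g.

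Tgfbi (ENSMUSG00000035493, chr13:56609523-56639562, plus strand), the other fasciclin-domain member, went the other way in fibroblast-like cells. It was 264, 297, 375 and 394 CPM, with both deligated libraries below both homeostatic ones. The means were 281 ± 23.2 and 385 ± 13.4 CPM (SD, n = 2). Tgfbi fell by 0.39 ± 0.12 on the log2 scale (SE, adjusted p = 0.04264, edgeR with Benjamini-Hochberg adjustment). This call is the least stable of the 6, since 8 of 16 alternatives lost it, among them DESeq2 (adjusted p = 0.08969), the removal of the intron-length trend (0.2049), the replicate block (0.05896) and leaving out homeostatic 1 (0.2228) or homeostatic 2 (0.3404). A Tgfbi UMI was found in 26.4%, 24.0%, 30.5% and 29.9% of thinned cells. Macrophage-like cells held Tgfbi at 216, 179, 115 and 116 CPM, both deligated libraries above both homeostatic ones, without a test. The cluster with Cx3cr1 among its leading genes held 97.96%, 94.6%, 91.1% and 90.7% of these UMIs.

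Sparc (ENSMUSG00000018593, chr11:55394500-55423183, minus strand) encodes a collagen-binding protein also called osteonectin. In fibroblast-like cells it was 5381, 3697, 1618 and 1499 CPM, with both deligated libraries above both homeostatic ones and deligated 1 the highest. The means were 4539 ± 1191 and 1558 ± 84.1 CPM (SD, n = 2). Sparc rose by 1.61 ± 0.19 (log2, SE, adjusted p = 0.0002888, edgeR with Benjamini-Hochberg adjustment), and the call was kept under all 16 alternatives run, the robust prior included (1.28 to 1.91). A Sparc UMI was found in 97.1% to 100% of cells of each library, and in 94.4%, 90.4%, 72.1% and 70.4% after thinning.

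Outside fibroblasts, Sparc was 5980, 5460, 2267 and 3305 CPM in Schwann-like cells, 2415, 2407, 2179 and 1796 in mural-like cells and 2291, 2137, 1372 and 1373 in endothelial-like cells. The groups did not overlap in any of these classes. In erythroid-like cells Sparc was 1434 ± 213 CPM in the deligated and 419 ± 2.76 CPM in the homeostatic libraries (mean, SD, n = 2). The groups did not overlap there either, with a ratio of 3.42 beside 2.91 in fibroblast-like cells. That class held 24, 118, 160 and 163 cells and was too small for the test. The part of other cells' RNA in its level was not tested. Sparc rose by 0.71 ± 0.10 (log2, SE) in endothelial-like cells (adjusted p = 0.003513, edgeR with Benjamini-Hochberg adjustment). In mural-like cells the value was 0.27 ± 0.13 (adjusted p = 0.2529). The fibroblast-like difference exceeded the mural-like one by 1.43 ± 0.16 (adjusted p = 0.002826) and the endothelial-like one by 1.01 ± 0.15 (adjusted p = 0.002095), by edgeR's interaction term. The first of these was lost without deligated 1 (1.17) or homeostatic 2 (1.43), the other without homeostatic 1 (1.08) or homeostatic 2 (0.96). Within mural-like cells Sparc was 4189, 4156, 3694 and 3361 CPM in the cluster led by Abcc9 and Kcnj8 and 1347, 1379, 1383 and 1300 CPM in the one led by Pln and Tagln, and the former held a smaller share of mural-like cells in homeostatic 2, as given above. Sparc was also called in NK/innate lymphoid-like (2.00 ± 0.32) and T cell-like cells (1.17 ± 0.35), where its level was at most 31.4 CPM.

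The thrombospondins are multimeric glycoproteins that bind Cd47, Cd36 and integrins. Thbs2 (ENSMUSG00000023885, chr17:14665500-14694235, minus strand) was 166, 173, 71.7 and 73.8 CPM in fibroblast-like cells. The libraries of each group were close to each other and the groups did not overlap. Thbs2 rose by 1.28 ± 0.13 (log2, SE, adjusted p = 0.0001207, edgeR with Benjamini-Hochberg adjustment), a call kept under all 16 alternatives run (0.88 to 1.37). A Thbs2 UMI was found in 73.1%, 65.9%, 28.1% and 29.5% of cells and in 15.0%, 15.4%, 6.71% and 9.15% after thinning. Fibroblast-like cells held 86.5%, 87.2%, 69.6% and 69.1% of all Thbs2 UMIs.

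Thbs1 (ENSMUSG00000040152, chr2:118111876-118127133, plus strand; Gm29233 overlaps it on the other strand) was 73.3, 80.9, 94.1 and 131 CPM in fibroblast-like cells. Both deligated libraries were below both homeostatic ones. The log2 fold change was -0.48 ± 0.17 (SE, adjusted p = 0.06873, edgeR with Benjamini-Hochberg adjustment), which misses the threshold. It passed under 8 of 16 alternatives, among them without deligated 1 (-0.44), without deligated 2 (-0.50) and with the intron-length trend removed (-0.59), and was smallest without homeostatic 2 (-0.23). In endothelial-like cells Thbs1 was 9.38, 19.2, 14.8 and 12.1 CPM, with deligated 1 lowest and deligated 2 highest. Its fold change there was 0.11 ± 0.30 and depended on the library left out, passing as higher without deligated 1 (0.49) and as lower without deligated 2 (-0.44). In mural-like cells it was 33.9, 9.77, 11.4 and 9.98 CPM. Deligated 1 stood apart, the log2 fold change was 1.01 ± 0.70 and the gene was called without deligated 2 (1.70).

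Tnc (ENSMUSG00000028364, chr4:63959785-64047015, minus strand) encodes tenascin C, a large hexameric glycoprotein. Only 57, 18, 1 and 1 UMIs were found in fibroblast-like cells, or 12.0, 2.79, 0.498 and 0.523 CPM. Both deligated libraries were above both homeostatic ones, and the gene was too low for the test. Fibroblast-like cells held 50.4% and 30.5% of all Tnc UMIs in the deligated libraries, and epithelial-like cells held 79.5% and 76.1% in the homeostatic ones. Without deligated 2 it was tested and called (log2 fold change 4.56), a value that rests on 1 deligated library.

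Cthrc1 (ENSMUSG00000054196, chr15:39076932-39087121, plus strand), the collagen triple helix repeat containing protein, rested on 1 library in fibroblast-like cells. It had 174, 13, 5 and 2 UMIs, or 36.6, 2.01, 2.49 and 1.05 CPM. Deligated 1 was high, and deligated 2 lay between the homeostatic libraries. In deligated 1 the UMIs came from 13 of 360 cells, 89 of them from 3 of its 6 cells in the cluster led by Pcolce2 and Pi16. Without deligated 2 the gene was called (4.44), which is deligated 1 against the homeostatic libraries.

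Cthrc1 ranged narrowly over the 4 libraries in vessels. In endothelial-like cells it was 3.52, 3.16, 3.35 and 3.07 CPM, and the log2 fold change was 0.08 ± 0.22 (SE, adjusted p = 0.8162, edgeR with Benjamini-Hochberg adjustment). In the cluster with Gja5, Sema3g and Bmx among its leading genes, known from arteries, it was 18.7, 24.4, 17.8 and 17.9 CPM. It was 9.01, 6.55, 9.25 and 8.72 CPM in the cluster led by Selp and Vwf, known from veins. It was 0.623 and 0.645 CPM in the deligated cells of the cluster led by Hlx, Rsad2 and Aplnr, and 0.751 and 0.473 CPM in the homeostatic cells of the cluster led by Gm20532 and Dlg2.

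Endothelial-like cells, 1892, 3106, 3530 and 3476 in the 4 libraries, gave 5 calls among 7 members tested, all higher in the deligated libraries. Over all 13191 genes 35% were called and 12.9% were higher, and with the intron-length trend removed 5022 were higher and 1459 lower, with a median over all genes of 0.28. Beside Sparc these were Thbs2 (6.20, 6.38, 3.69 and 3.64 CPM), Tgfbi (5.38, 3.52, 2.30 and 0.928 CPM), Postn (1.103, 1.25, 0.209 and 0.285 CPM) and Cilp (15, 45, 1 and 2 UMIs). Thbs2 rose by 0.80 ± 0.18 and Tgfbi by 1.48 ± 0.45 (log2, SE, adjusted p = 0.017 and 0.04615, edgeR with Benjamini-Hochberg adjustment). Thbs2 and Postn lost the call without homeostatic 1 or homeostatic 2, and Tgfbi without homeostatic 2 (0.98). Most deligated and homeostatic cells of this class lay in different clusters, led by Hlx, Rsad2 and Aplnr and by Gm20532, Dlg2 and Rgs7. Fibroblast markers summed to 41.3, 123, 11.6 and 11.8 CPM in the endothelial-like sums, 7 of 8 tested genes of that list higher in the deligated libraries and at most 1 of 9 at 0, and their part in these low levels was not tested.

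The difference of Tgfbi between groups had opposite signs in the 2 classes. The fibroblast-like minus the endothelial-like log2 fold change was -1.70 ± 0.35 (SE, adjusted p = 0.01418, edgeR interaction term), lost without homeostatic 2 (-1.16) and by DESeq2 (adjusted p = 0.106). Tgfbi and Sparc were the 2 of 9 members called in this comparison, against 5.55% of 14321 genes.

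Among lymphocytes, 2 of 3 tested members were called in NK/innate lymphoid-like cells (Sparc and Cilp, both higher), where 17.4% of all genes were called higher. Cilp had 15, 33, 0 and 0 UMIs there, so its fitted fold change is no bound. Fibroblast markers summed to 42.8, 120, 5.30 and 7.46 CPM in these sums, with 6 of 6 tested genes higher in the deligated libraries, and the log2 fold change of Sparc was 0.72 with doublets kept (called there too). In T cell-like sums they were at 44.7, 137, 9.64 and 14.5 CPM, with 5 of 5 higher. At most 5 of the 9 markers were at 0 in a library, and their part in the calls was not tested. The only member tested in T cell-like cells, Sparc, was called (21.4, 31.4, 17.1 and 8.40 CPM), where 7.22% of all genes were called higher, and it was lost without homeostatic 2 (0.75).

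**Figure D4:**
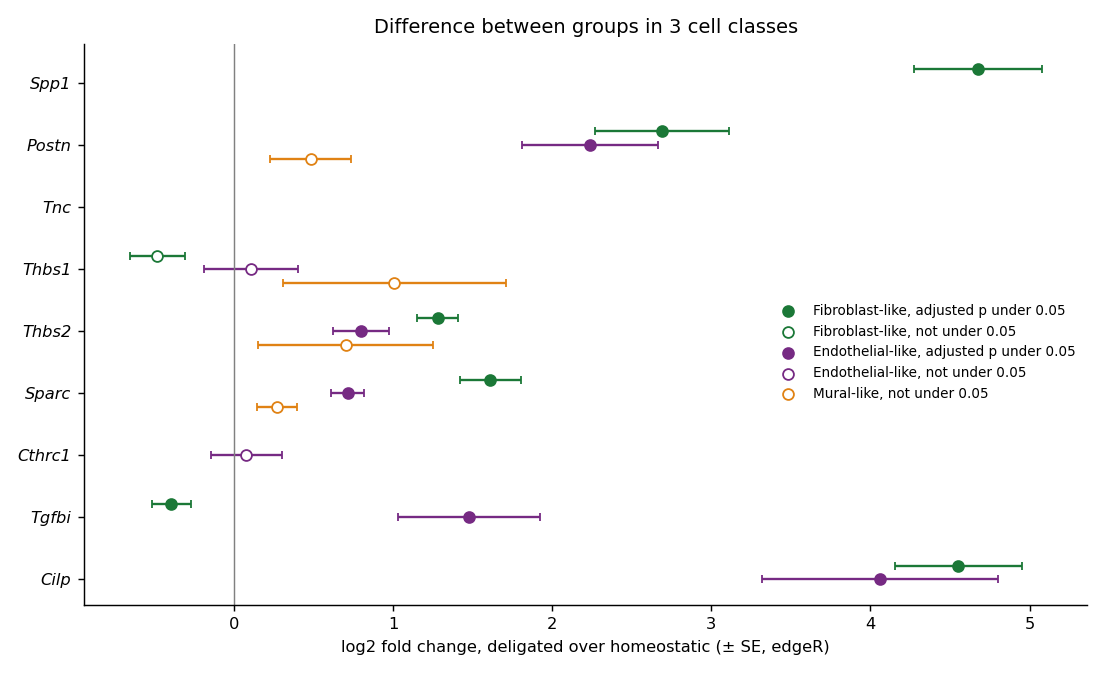
Log2 fold change, deligated over homeostatic, with its standard error from edgeR, in fibroblast-, endothelial- and mural-like cells; filled points have an adjusted p under 0.05. Spp1 and Cilp lie above 4 in fibroblast-like cells, Tgfbi and Thbs1 lie below 0 there, and no mural-like point is filled; a missing point was too low for the test.

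Fibroblast-like cells were also split by a UMI of Pi16 or Dpp4, known markers of adventitial fibroblasts. Cells with either made up 40.8% (147), 31.1% (231), 12.8% (39) and 12.6% (36) of the class, in the order of the median depths given above. After thinning they made up 11.1% (8.06 to 14.8), 11.1% (8.91 to 13.6), 7.72% (4.96 to 11.4) and 5.28% (2.99 to 8.56), and of the intervals of different groups those of deligated 2 and homeostatic 2 alone are separate. The ratios below use the split on all UMIs, and their intervals cover counting error only. Spp1 UMIs lay in few cells, as given above, so the intervals of Spp1 understate the spread between cells. The level of Spp1 differed little by this split in the deligated libraries, at 0.947 (0.900 to 0.996) and 1.08 (1.01 to 1.15) times that of cells without. Cilp was 2.65, 2.50, 3.97 and 3.04 times as high in cells with Pi16 or Dpp4. Postn was 2.31, 2.39, 7.03 and 7.37 times as high. Both genes were on the same side in all 4 libraries. Tgfbi was on the other side, at 0.739, 0.701, 0.450 and 0.428.

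Sparc was 1.64, 1.38, 1.93 and 1.47 times as high in cells with Pi16 or Dpp4, and Thbs2 1.08, 1.03, 1.77 and 1.53 times. Tnc stood at 0.570 and 0.961 in the deligated libraries, from 57 and 18 UMIs, with intervals that include 1. Thbs1 had no common direction over the libraries, with ratios of 1.07, 0.739, 0.0888 and 0.741. Cthrc1 was 6.19 (4.18 to 9.45) and 6.41 (1.65 to 36.2) times as high in the deligated libraries, from 174 and 13 UMIs. Cells with a Pi16 or Dpp4 UMI were deeper in every library, most in homeostatic 1 (medians 13312, 9653, 8738 and 7384.5 UMIs against 12873, 8813, 6473 and 6499). In the small cluster led by Pcolce2 and Pi16 (6 cells of deligated 1, none of deligated 2, and 21 and 12 homeostatic cells) no UMI of Spp1, Cilp or Tnc was found. Postn there was 1406 CPM in the 6 cells of deligated 1 (197 UMIs) and 264 and 262 CPM in the homeostatic cells (48 and 34 UMIs). These UMIs were 10.75%, 44.86% and 51.52% of the fibroblast-like Postn UMIs of deligated 1, homeostatic 1 and homeostatic 2. Their part in the ratios of Postn was not tested.

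**Figure D5:**
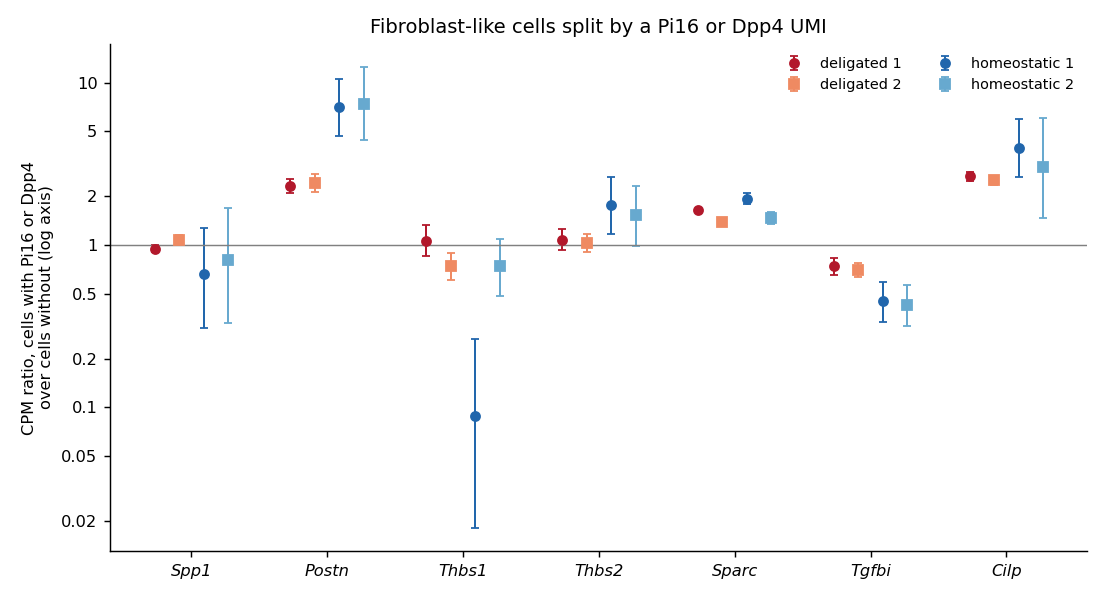
Ratio of CPM (log axis) in fibroblast-like cells with a Pi16 or Dpp4 UMI over cells without, per gene and library, with counting intervals where drawn. Postn and Cilp lie above 1 in all 4 libraries (2.31 to 7.37 and 2.50 to 3.97), Tgfbi below 1 in all 4 (0.428 to 0.739), and Spp1 near 1 in the deligated libraries.

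Across the 32 sums of a class in a library with at least 50 cells, the gene most like Spp1 was Uap1l1 (Pearson r = 0.867 of log2(CPM + 1)), followed by Cxcl14 (0.786) and Mfap4 (0.782), among 11232 genes with a mean of at least 5 CPM. The most like gene was Mfap4 for Cilp (0.957), Fat1 for Postn (0.967), Serpinh1 for Sparc (0.981), Dnm3os for Thbs2 (0.941), Pla2g4a for Tgfbi (0.945) and Tpcn1 for Thbs1 (0.902). For Tnc it was Gpt2 (0.852) and for Cthrc1 Cgnl1 (0.750), both members with means below 5 CPM. Among the members the closest pairs were Postn and Tnc (0.80), Thbs2 and Cilp (0.78) and Spp1 and Cilp (0.77). Sums of 1 library share its depth and free RNA, so these values are descriptions.

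Of 32 other matricellular and related genes, 20 were tested in fibroblast-like cells, and 12 were higher and 1 lower, with a median log2 fold change of 0.70 beside 0.01 over all genes, of which 8.36% were higher and 17.9% lower. With the intron-length trend removed 15 were higher and 1 lower, beside 12.3% and 7.32% of all genes. In mural-like cells 1 of 12 was higher and 1 lower (median 0.30), beside 1.25% and 6.35% of all genes. With the trend removed 0 of 12 were called there, beside 2.13% higher and 2.21% lower of all genes. Cyr61, the higher one before, was then at 1.19 (adjusted p = 0.06987, edgeR with Benjamini-Hochberg adjustment) from 1.38. In endothelial-like cells 3 of 16 were higher and 2 lower (median 0.16), beside 12.9% and 22.1% of all genes. These became 8 higher and 2 lower with the trend removed (median 0.50), beside 38.1% and 11.1% of all genes. Among the rises in fibroblast-like cells were Wisp1, a Ccn-family protein (43.6, 46.8, 9.96 and 8.90 CPM, log2 fold change 2.32 ± 0.20), and Thbs4, a pentameric thrombospondin (63.2, 24.5, 0.996 and 0 CPM). Thbs4 had the largest fitted rise of the list, 6.39 ± 0.92, which is no bound since 1 library was at 0. Smoc2, a relative of Sparc, rose in endothelial-like cells at very low levels (1.03, 3.93, 0.348 and 0.0714 CPM). Fibroblast markers were higher in the same deligated sums, as given above, and their part in this rise was not tested.

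The falls were led by Spock1 in endothelial-like cells (0, 0.0596, 1.25 and 0.999 CPM), Cd44 in the same cells and Edil3, an integrin-binding protein, in mural-like cells (10.1, 8.55, 31.0 and 28.3 CPM, log2 fold change -1.68 ± 0.35). The value of Edil3 was -0.08 with the intron-length trend removed, so its fall depended on it. Cd44, a receptor of osteopontin and hyaluronan, was 0.552, 1.49, 15.7 and 15.8 CPM in endothelial-like cells, and fell by 3.89 ± 0.31 (adjusted p = 0.0003882, edgeR with Benjamini-Hochberg adjustment). In the same sums macrophage markers were at 5.72, 18.5, 33.5 and 32.2 CPM (2 of 8 tested genes lower) and epithelial markers at 22.1, 31.5, 552 and 582 CPM (8 of 9 lower), and their part in the fall of Cd44 was not tested. Of 19 receptors, 14 were tested in fibroblast-like cells, where 4 were higher and 2 lower, beside 8.36% and 17.9% of all genes. The lower ones were Itga8 (-0.95) and Itga9 (-0.92), and both turned positive with the intron-length trend removed (0.31 and 0.69), when 8 receptors were higher and 0 lower, beside 12.3% and 7.32% of all genes. In mural-like cells 0 of 13 receptors were called (3 higher with the trend removed, beside 2.13% of all genes). In endothelial-like cells 2 of 17 were higher and 3 lower, near the shares of all genes given above. With the trend removed 9 of 17 were higher and 1 lower there, beside 38.1% and 11.1% of all genes.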

How the data were processed

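The authors deposited 10x matrices of UMI counts per gene and cell, 1 per library, made per the submitters' processing notes with Cell Ranger 6.0.1 on the mm10 genome and handled in Seurat. Per the file headers the version was 6.0.1 for the deligated and 7.0.0 for the homeostatic libraries, and whether intronic reads were counted is not given in the sources used here. Cells with at least 300 genes and at most 10% mitochondrial UMIs were kept, and doublets were scored against simulated ones and removed at 0.8% per 1000 cells. The rest were clustered with scanpy 1.11.5 (3000 variable genes without the members, 30 components, 20 neighbours, Leiden resolution 1.0), and clusters were named from fixed marker lists.

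Raw UMI counts of a class were added up within each library. Classes with at least 100 cells in every library were tested with edgeR 4.0.16 (R 4.3.3; TMM, filterByExpr, quasi-likelihood test) for deligated over homeostatic. P-values were adjusted by Benjamini-Hochberg over every gene in the fit, at a threshold of 0.05. Differences between classes were tested by an interaction term with library as a block. DESeq2 1.42.0 was an alternative. Permuting 2 and 2 libraries exactly gives no p below 0.333, so no such test was used. Shares were also computed after thinning each cell to 1000 UMIs. Intervals of shares are exact Clopper-Pearson intervals and those of levels and ratios exact Poisson or binomial ones, all at 95%. The edgeR steps were tested on simulated data. Named are all 9 members, the 3 largest rises and the 3 largest falls among called genes of the related list, and the genes most like each member. Members and lists were chosen with earlier results of these data known. Genome positions are from the GENCODE annotation of GRCm38, which held 31011 of the 31053 gene IDs, and promoters from RefSeq on GRCm38.p6.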

Additional observations from a re-analysis of the deposited data

Results flagged for a closer look

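The group difference of 3 members differed between cell classes in the edgeR interaction test (Benjamini-Hochberg adjusted over all genes). Postn differed more in fibroblast-like than in mural-like cells, by 2.17 on the log2 scale, and was higher in both deligated fibroblast-like sums than in both homeostatic ones. Sparc differed more in fibroblast-like cells than in mural-like cells, by 1.43, and than in endothelial-like cells, by 1.01, with both deligated libraries higher in all 3 classes. Tgfbi was lower in both deligated libraries in fibroblast-like cells and higher in both in endothelial-like cells, a difference of -1.70. Each of the 4 was lost on leaving out at least 1 library, as given with the results.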

How the results depend on the processing

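With 2 libraries a group, leaving out 1 leaves a lone library that is assumed to vary like the others. On doing so, the number of members called ranged from 5 to 9 in fibroblast-like cells (6 with all libraries), 3 to 7 in endothelial-like (5), 0 to 2 in mural-like (0), 2 to 3 in NK/innate lymphoid-like (2) and 0 to 1 in T cell-like cells (1), and from 0 to 4 and 0 to 2 in the interactions of fibroblast-like with endothelial- and mural-like cells (2 each). The share of all genes called moved with them, from 12.2% to 39.2% in fibroblast-like, 16.7% to 55.2% in endothelial-like, 2.92% to 11.7% in mural-like, 22.3% to 54.6% in NK/innate lymphoid-like and 8.99% to 37.1% in T cell-like cells, and from 1.6% to 10.2% and 0.0333% to 0.328% in the interactions. DESeq2's test called 3 in endothelial-like (26% of all genes) and 0 in T cell-like cells (14.2%) and 1 in the interaction with endothelial-like cells (1.24%). Sums of thinned cells called 1 in NK/innate lymphoid-like (28% of all genes), 1 in endothelial-like (22.9%) and 0 in T cell-like cells (16.9%). In T cell-like cells the stricter cell filter called 0 (24.4%) and no filter on low counts 3 (19.7%). The robust prior, chosen after seeing the data like the fit without the cluster led by Pi16, called 4 in fibroblast-like cells (27.8% of all genes). Spp1, Cilp and Postn lost the call there, as given above, and Thbs1 passed. The Spp1 ratio of the deligated libraries, 2.25, was 1.87 after thinning. Reversed were Thbs1 in endothelial-like cells (0.11 with all libraries, -0.44 without deligated 2, -0.03 without homeostatic 2, at most 0.49 without deligated 1) and Cthrc1 there (0.08 with all libraries, -0.05 without deligated 1, 0.22 without deligated 2 and 0.48 after thinning). Some of these settings keep fewer UMIs or libraries, and the cause of the changes was not tested.

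Libraries share only a replicate number, and same-numbered deviations correlated at -0.155 to -0.003. With the replicate block 6 members were called in fibroblast-like (29.3% of all genes), 5 in endothelial-like (31.7%), 0 in mural-like (8.73%), 3 in NK/innate lymphoid-like (45.3%) and 1 in T cell-like cells (24.3%). Over all genes in fibroblast-like cells, 3037 were called, against 2001 by DESeq2, 1051 after thinning (of 5727 tested, not 11556), 3387 with the replicate block, 4395 without deligated 1, 3874 without deligated 2, 1546 without homeostatic 1 and 1499 without homeostatic 2. Of the other fold changes under alternatives, 284 kept direction and side, 15 passed the threshold anew and 24 lost it. Depth limits Tnc and Cthrc1 in fibroblast-like cells, which had 1 to 5 UMIs in a homeostatic library.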
